A study of Mus musculus with 12 samples.

Results

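G protein-coupled receptors carry signals across the cell membrane, and a large share of them still lack an agreed ligand (orphan receptors) or combine the receptor with a long extracellular adhesion part (adhesion receptors). In macrophages and microglia such receptors sense acid, fatty acids and oxysterols, and adhesion receptors such as the macrophage marker F4/80 sit on the cell surface. A receptor gene's regulatory regions carry acetylated histone H3 lysine 27 (H3K27ac) where they are active. The genes described here are those whose name in the deposited region table starts with Gpr and a digit, with Gprc or with Adgr, with Gpr34 left out. The rule found 87 of 18207 genes, with 518 of 104981 regions of 500 bp, and all 87 names matched RefSeq's gene table of GRCm38.p6. Some names cover proteins that are not cell surface receptors, such as the Golgi and lysosomal proteins Gpr107 and Gpr155.

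The study measured H3K27ac by ChIP-seq in microglia sorted from the cortex of mice at postnatal day 30, killed 4 h after an injection of interleukin-33 (IL-33) or vehicle into a cerebral ventricle on a single side. IL-33 is a cytokine that cells release on damage. Each library is 1 mouse, with cells taken by Percoll gradient and flow sorting, and they came from male mice 1, 2, 5 and 6 and female mice 3, 4, 7 and 8. The labels give the sex of each mouse and not its treatment, and name no strain or genotype. The IL-33 comparison therefore rests on the authors' deposited table, while the sex comparison uses values per mouse.

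Sequencing depth was 5160915 to 10019606 tags per male and 2155209 to 4133042 per female library, so 1 read counted 0.998 to 1.94 normalised tags in male and 2.42 to 4.64 in female libraries. The male and female libraries also differ in the date and the index type in their headers, so sex and library batch cannot be told apart. All 12 microglial markers examined had a promoter region, with 49.2 to 444 mean tags. Their summed promoter signal was 1759 to 2182 tags in male and 2159 to 3157 in female libraries. Summed markers of neurons, astrocytes, lymphocytes, and monocytes and neutrophils reached at most 8.02, 6.87, 3.44 and 4.64 tags in any library, and defining genes such as Rbfox3, Gfap, Cd3e and Ccr2 have no promoter region. Markers of border macrophages summed to 22.9 to 55.7 tags, those of oligodendrocytes to 17.0 to 107 (mainly Mog) and those of endothelial cells to 46.9 to 139 (mainly Pecam1). Their part in the results was not tested. In a bulk library, fewer cells of a type and less mark per cell cannot be told apart.

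Most orphan and adhesion receptor genes carried little H3K27ac in these microglia, and a small group carried much. Of the 87 genes, 46 had no region with a mean of 10 tags, while 13 had a region of at least 100 tags. A region within 1000 bp of the transcription start site (TSS) was listed for 50 genes. The highest such region held under 5 tags at 23 genes, 5 to 50 tags at 15 and at least 50 tags at 12, or 24% of the 50 genes against 44.5% of all 13158 genes with a promoter region. The median was 9.36 tags for the receptor genes and 40.3 for all genes. None of the 7 class C receptor genes reached 10 tags at any region. The lipid and metabolite receptors held 4 of the 12 genes with a promoter of at least 50 tags among their 8 genes, and the adhesion family held 1 among its 21.

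The highest promoter signal was found at Gpr146, a receptor linked to plasma cholesterol. It measured 244.5, 182, 162.5 and 217 tags in males 1, 2, 5 and 6, and 147, 152, 159 and 116 in female mice 3, 4, 7 and 8. The lowest male value lay just above the highest female value, and the difference did not pass the test (log2 difference -0.48, SE 0.22, limma, adjusted p = 0.396). The region also lies in the gene 3110082I17Rik, so its signal cannot be given to Gpr146 alone.

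Gpr19, an orphan receptor gene, followed with 143 ± 15.1 tags in males and 161 ± 59.6 in females (SD, n = 4). Gpr160, another orphan, had 139.6 ± 40.8 and 149.5 ± 51.5 tags (SD, n = 4). Male and female values overlapped at both promoters.

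At Gpr84, the receptor for medium-chain fatty acids known from activated macrophages, the promoter held 218, 123, 74.4 and 63.9 tags in males 1, 2, 5 and 6, and 191, 206, 72.5 and 83.5 in female mice 3, 4, 7 and 8. Each sex thus held values near 70 and values near 200 tags, and the spread within a sex (SD 70.1 and 69.8) was larger than the difference between the sexes. Gpr35, a receptor for kynurenic acid, varied less, with 101 ± 26.1 tags in males and 128 ± 25.1 in females (SD, n = 4). The promoter of Gpr183, the oxysterol receptor that steers the migration of immune cells, had 105 ± 37.0 and 117 ± 23.03 tags (SD, n = 4). Gpr18, its neighbour within the gene Ubac2, ranged from 11.6 tags in male mouse 6 to 167 in female mouse 4.

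Among adhesion receptors, Adgrg1 (GPR56, a receptor of cortical development that also marks microglia) had the highest promoter, with 116, 92.8, 86.0 and 155 tags in male and 61.6, 184, 150.5 and 121 in female mice in the order above. Adgre1, which encodes F4/80, held 52.3 ± 29.5 tags in males and 47.6 ± 7.62 in females at its promoter (SD, n = 4), and more at 14.5 kb upstream (147 ± 21.2 and 184 ± 55.7). Gpr183 had the highest region of all 518, at 2.54 kb inside the gene, with 312.5 ± 102 tags in males and 480 ± 115 in females (SD, n = 4).

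**Figure D1:**
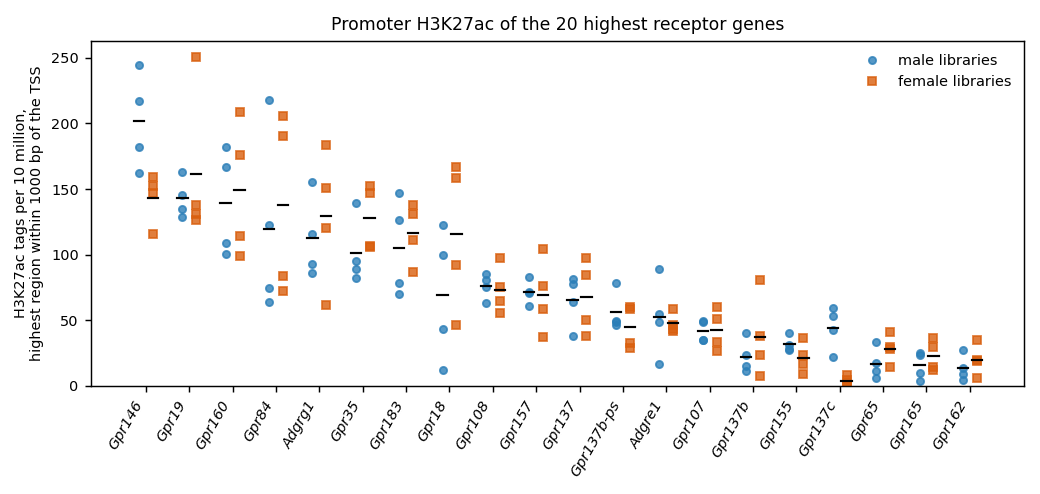
H3K27ac at the highest region within 1000 bp of the TSS for the 20 receptor genes with the highest mean, in normalised tags (vertical axis, linear). Points are single libraries, 4 male and 4 female, and black bars are group means; Gpr84 and Gpr18 spread widely within each sex, while the female values of Gpr137c lie at 0 to 8.36 tags.

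Promoter sequences are shown for 4 genes that the comparisons return to, Adgrg1, Gpr183, Gpr65 and Gpr137c. Each is the RefSeq window on GRCm38.p6 from 250 bases before to 50 after the start, read 5′ to 3′ on the gene's strand. The windows lie at chr8:94984149-94984448 (plus strand), chr14:121965144-121965443 (minus strand), chr12:98268385-98268684 (plus strand) and chr14:45219467-45219766 (plus strand). Capitals mark matches to the AP-1 motif TGANTCA in Adgrg1 and to the PU.1 motif GAGGAAGT in Gpr137c, searched on both strands.
Adgrg1: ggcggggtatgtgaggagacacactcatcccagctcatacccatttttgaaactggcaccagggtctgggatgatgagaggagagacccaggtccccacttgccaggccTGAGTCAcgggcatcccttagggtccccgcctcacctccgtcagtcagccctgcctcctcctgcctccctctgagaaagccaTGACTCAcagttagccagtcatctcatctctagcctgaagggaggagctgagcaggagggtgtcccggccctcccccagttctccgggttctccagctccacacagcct
Gpr183: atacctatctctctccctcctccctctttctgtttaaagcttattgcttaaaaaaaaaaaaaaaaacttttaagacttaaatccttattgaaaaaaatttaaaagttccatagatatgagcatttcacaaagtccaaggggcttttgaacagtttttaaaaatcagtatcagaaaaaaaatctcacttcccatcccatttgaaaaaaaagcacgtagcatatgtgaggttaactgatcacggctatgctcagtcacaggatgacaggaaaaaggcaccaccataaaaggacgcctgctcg
Gpr65: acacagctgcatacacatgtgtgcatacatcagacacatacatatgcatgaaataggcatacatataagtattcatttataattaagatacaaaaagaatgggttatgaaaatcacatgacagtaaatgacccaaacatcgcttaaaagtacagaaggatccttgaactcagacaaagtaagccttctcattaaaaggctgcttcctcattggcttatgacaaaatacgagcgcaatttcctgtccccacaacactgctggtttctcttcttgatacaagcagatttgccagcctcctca
Gpr137c: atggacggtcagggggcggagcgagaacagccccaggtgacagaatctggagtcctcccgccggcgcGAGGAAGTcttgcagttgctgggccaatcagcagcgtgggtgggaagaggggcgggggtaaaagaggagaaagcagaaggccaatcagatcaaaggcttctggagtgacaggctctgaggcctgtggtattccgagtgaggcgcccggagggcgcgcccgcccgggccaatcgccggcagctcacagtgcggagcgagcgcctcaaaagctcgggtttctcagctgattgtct

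The windows of Adgrg1 and Gpr137c were rich in G and C (60.7 and 63.3%), and those of Gpr183 and Gpr65 poor (35.3 and 38.3%). Both AP-1 matches of Adgrg1 stand before the start, at -141 and -59 bases. Over all 32851 RefSeq windows of this length, 7.81% hold the AP-1 letters, 3.2% the PU.1 letters, 1.79% the CRE motif TGACGTCA and 8.46% an NF-kB motif. Of the 6 receptor genes with a window and a promoter of at least 50 tags, 1 held the AP-1 letters (Adgrg1) and none the other 3 motifs. Of 10 with a promoter under 5 tags, the numbers were 1 for AP-1, 1 for PU.1, 1 for NF-kB and 0 for CRE. A match is a run of letters and no proof of binding.

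The IL-33 comparison asked which distal regions gained or lost H3K27ac. Of the 518 regions, 262 are listed in the authors' deposited table, where 189 regions of 35 genes were tested. The nearest of these lies 3020 bp from its TSS, so the promoters above have no IL-33 value there. Of the 189 regions, 18 rose and 11 fell at an adjusted p under 0.05 by the authors' deposited table. These are 9.52% and 5.82%, against 10.2% and 7.99% of all 40352 regions tested. Over the receptor regions the authors' deposited table gives a median change of 0.00 log2 units, and of -0.01 over all regions. With all levels pooled, the regions of these genes thus changed about as often as regions elsewhere. Among regions with a mean level at or above the table's median, 10 receptor regions rose and 9 fell, against 14.8% and 12.7% of all such regions. Receptor regions tested at that level numbered 37 for the adhesion family, 36 for lipid and metabolite receptors and 15 for other class A orphans. The proton-sensing genes held 5, Gpr107 and Gpr155 together 5, relatives of P2ry12 4, Gpr12 and Gpr3 together 3 and class C genes 0. Receptor regions were thus called less often there, but regions of a gene are not independent and the difference was not tested. By gene, the authors' deposited table gives 9 genes with only rises, 3 with only falls, 2 with both and 21 with neither. That is 31.4% of the 35 genes with a rise and 14.3% with a fall, against 19.4% and 20.9% of all 7838 genes with a tested region. With the threshold set at 0.01, 13 rises and 6 falls remain of those in the authors' deposited table, against 6.86% and 4.54% of all regions. The median number of tested regions per gene was 3 in both sets. The other 52 genes were not tested.

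The calls were divided by role. These counts, and those of the markers below, are to be read against 10.2% rises and 7.99% falls over all tested regions. The 4 proton-sensing receptor genes had 6 rises and no fall among 14 tested regions, the lipid and metabolite receptors 6 rises and no fall among 52, the adhesion family 6 rises and 4 falls among 62, and the other class A orphans 7 falls and no rise among 35, all by the authors' deposited table. The medians in the authors' deposited table were 1.08, 0.19, -0.14 and -0.55 log2 units in that order. Among tested regions with a mean level at or above the median of the authors' deposited table, rises were 2 of 5, 4 of 36 and 4 of 37 in the first 3 groups, and falls were 3 of 37 in the adhesion family and 6 of 15 in the other class A orphans, against 14.8% rises and 12.7% falls over all such regions. Both Gpr4 rises and 2 of the 3 at Gpr132 lie under that level. By the authors' deposited table, microglial markers had 15 rises and 25 falls among 215 regions (median -0.10), and border macrophage markers 0 rises and 1 fall among 16 (median -0.56). Oligodendrocyte and endothelial markers had 1 and 3 rises and 1 and 3 falls among 24 and 29 regions (medians 0.02 and 0.03) by the authors' deposited table. The part of these markers in the receptor values was not tested. Regions of a gene are not independent of each other, and 10 of the 29 called regions overlap another called region of their gene. By RefSeq gene bounds, 9 called regions lie inside the receptor gene, 7 inside another protein-coding gene and 14 in neither; 1 of them, in the Gpr183 intron, lies in both.

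**Figure D2:**
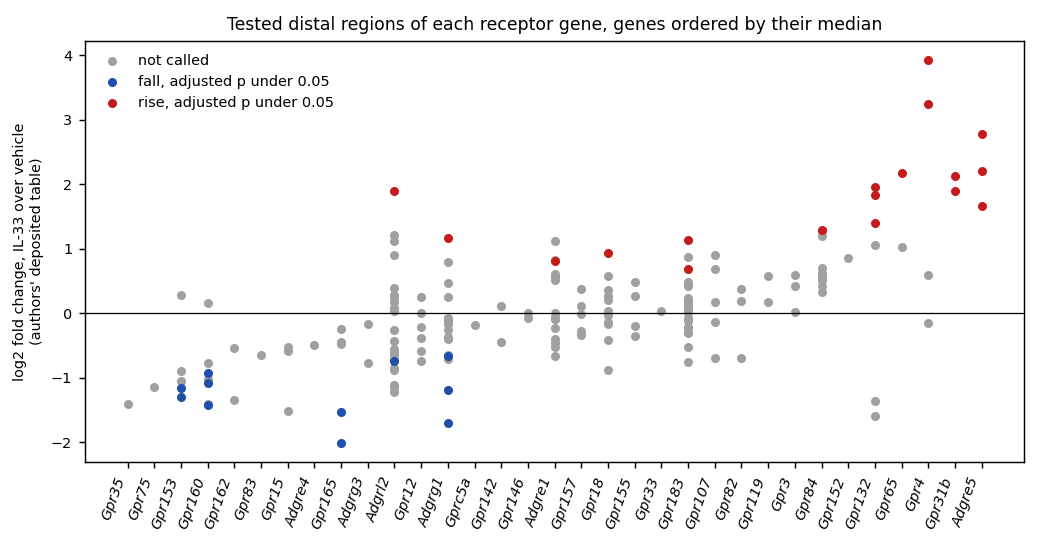
Log2 fold change of IL-33 over vehicle in the authors' deposited table (vertical axis) for 183 tested distal regions of 33 genes, by nearest gene. Each point is a region, red for the 18 rises, blue for the 11 falls and grey for those not called; Adgre5, Gpr31b and Gpr4 stand at the right end, and the genes with only falls, Gpr153, Gpr160 and Gpr165, in the left part.

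Proton-sensing receptors respond to acid outside the cell, and 3 of the 4 genes had a rise, against 19.4% of all tested genes. Among the receptor regions, the smallest adjusted p was at a region 14.9 kb past the start of Gpr65, a Gs-coupled acid sensor of immune cells (chromosome 12, 98283246 to 98283746, intergenic, mm10). It held 119, 76.7, 24.1 and 29.1 tags in males 1, 2, 5 and 6, and 214, 191, 39.0 and 23.2 in female mice 3, 4, 7 and 8. Each sex held both high and low values, and the sexes overlapped. The authors' deposited table gives a group value of 3.90 for vehicle and 6.14 for IL-33 on the log2 scale, and a change of 2.17 log2 units (SE 0.31, adjusted p = 4.03e-10). The other tested region of Gpr65 stood at 1.03 (adjusted p = 0.143) by the authors' deposited table. The nearest other protein-coding gene is Galc, 23787 bp away.

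Gpr132, listed here with the proton sensors, is also described as a receptor for oxidised fatty acids and lysophospholipids. It had 3 of the list's 6 rises, among 6 tested regions by the authors' deposited table, so the counts by role depend on where it is placed. They lie 4.09, 5.80 and 6.55 kb upstream of the start used in the deposited table and inside the RefSeq bounds of the gene, with log2 fold changes of 1.84, 1.96 and 1.40 (SE 0.48, 0.50 and 0.43) by the authors' deposited table. At the second of them the tags were 32.9, 50.4, 5.24 and 9.69 in male and 47.0, 19.4, 13.9 and 0 in female mice, in the order above. The sexes overlapped there, with the lowest value in female mouse 8. A region 19.0 kb upstream stood at -1.60 (adjusted p = 0.052) by the authors' deposited table.

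The largest log2 fold changes of the set lay nearest to Gpr4, an acid sensor known from endothelial cells. A region 9.86 kb upstream (chromosome 7, 19202426 to 19202926) held 35.9, 20.6, 0 and 0 tags in male and 35.2, 58.1, 0 and 0 in female mice. In each sex a pair of mice held reads and the other pair none. The authors' deposited table lists vehicle at 0 and IL-33 at 4.21 for it, and a change of 3.93 log2 units (SE 0.63, adjusted p = 2.5e-08). An overlapping region stood at 3.24 by the authors' deposited table. Both lie in introns 19 and 20 of 21 of Eml2, a microtubule-associated protein gene, and the Gpr4 promoter held 0.879 tags on average.

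Of the 6 tested lipid and metabolite receptor genes, 4 had rises and none a fall, against 19.4% and 20.9% of all tested genes. By region, 6 of 52 rose, near the 10.2% of all regions. Gpr183, Gpr18 and Gpr84 had 24, 12 and 11 tested regions, against a median of 3 per gene over all genes. At Gpr84, all 11 tested regions had a log2 fold change above 0, from 0.33 to 1.29 by the authors' deposited table. The call was at 4.00 kb from the start, with 42.9, 44.7, 14.7 and 25.2 tags in male and 49.9, 58.1, 22.3 and 4.64 in female mice. Male and female values overlapped there. The authors' deposited table gives this region 1.29 (SE 0.40, adjusted p = 0.0108), and the other 10 did not pass its threshold.

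Gpr183 had 24 tested regions, more than any other gene of the set, and 2 rises. The region in the intron of Gpr183 (chromosome 14, 121961009 to 121961509) held 332, 368, 229.6 and 201.5 tags in male and 329, 668, 284 and 339 in female mice. The values overlapped between the sexes, with female mouse 4 far above the rest. The authors' deposited table gives 0.69 (SE 0.17, adjusted p = 0.000581). A region 30.5 kb upstream, in intron 7 of 8 of Ubac2, stood at 1.14 (SE 0.25, adjusted p = 9.14e-05) by the authors' deposited table. The other 22 regions were not called, and the gene's median was 0.05 by the authors' deposited table.

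Gpr31b, whose human counterpart binds a hydroxy fatty acid, had both of its tested regions risen, at 2.13 and 1.89 (SE 0.65 and 0.63, adjusted p = 0.00978 and 0.0189) by the authors' deposited table. Their tags ranged from 0 to 26.6 over the 8 libraries, so the depth behind them is low. Gpr18, an orphan receptor for which lipid ligands have been proposed, had 1 rise among 12 tested regions, at 0.94 (SE 0.35, adjusted p = 0.0421) in intron 2 of 8 of Ubac2 by the authors' deposited table. Gpr35 had a single tested region, at -1.41 (SE 0.58, adjusted p = 0.075), and the lipid receptor gene Gpr119 was at 0.58 (adjusted p = 0.479) at its best region by the authors' deposited table. The lysophosphatidylinositol receptor gene Gpr55 had no tested region and no region above 2.23 mean tags.

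Adhesion receptors differed from gene to gene. All 3 tested regions of Adgre5 rose; it encodes CD97, a leukocyte receptor that binds CD55. They form a cluster 6.33 to 7.53 kb upstream (chromosome 8, 83747391 to 83749092), intergenic, with log2 fold changes of 2.20, 2.78 and 1.66 (SE 0.57, 0.43 and 0.42) by the authors' deposited table. The middle region held 70.9, 66.4, 8.39 and 0 tags in male and 47.0, 106.5, 16.7 and 9.28 in female mice, an overlap of the sexes with high and low values in each. The authors' deposited table puts vehicle at 1.96 and IL-33 at 5.16 there (adjusted p = 1.31e-08). The Adgre5 promoter held 1.59 tags on average over the 8 libraries.

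Adgrg1 had 18 tested regions, with 1 rise and 3 falls in separate places. The distances of its upstream regions are counted from another start than those of its promoter and intron regions. An intergenic region 22.2 kb upstream (chromosome 8, 94954638 to 94955138) held 111, 101, 56.6 and 48.4 tags in male and 88.0, 235, 58.5 and 55.7 in female mice. The sexes overlapped, and female mouse 4 held the highest value. This region rose by 1.16 (SE 0.28, adjusted p = 0.00044) by the authors' deposited table. The nearest other protein-coding gene is Adgrg5, 11345 bp away, so the rise cannot be given to Adgrg1 alone. Nearer to Adgrg1, overlapping regions at 10.4 and 9.94 kb upstream fell by 1.71 and 1.19 (SE 0.59 and 0.41, adjusted p = 0.0249 and 0.0252) by the authors' deposited table. An intron 1 region 11.3 kb past the start fell by 0.67 (SE 0.24, adjusted p = 0.0313) by the authors' deposited table. The region with the most signal, 8.83 kb inside the gene with 207 ± 52.6 tags in males and 325.5 ± 26.5 in females (SD, n = 4), stood at -0.37 (SE 0.18, adjusted p = 0.139) by the authors' deposited table.

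Adgre1 had 1 rise among 16 tested regions, 10.8 kb upstream, at 0.81 (SE 0.24, adjusted p = 0.00568) by the authors' deposited table. That region held 149, 133, 72.3 and 91.1 tags in male and 141, 174, 111.5 and 51.04 in female mice, again overlapping. The gene's other regions lay from -0.66 to 1.12 with none called by the authors' deposited table. Adgrl2, which encodes the synaptic adhesion receptor latrophilin-2, is the nearest gene of 50 regions, 22 of them tested. By the authors' deposited table, a region in intron 1 fell by 0.74 (SE 0.23, adjusted p = 0.0108) and a region 129 kb upstream rose by 1.89 (SE 0.67, adjusted p = 0.0309). The risen region held 17 reads in the male libraries, 12 of them in mouse 1, and 15 in the female ones, 14 of them in mouse 4. The depth behind this rise is low. No promoter region is listed for Adgrl2. Neither Adgrb2 nor Adgrl1, with 7 regions each and at most 1.60 and 9.42 mean tags, had a tested region.

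**Figure D3:**
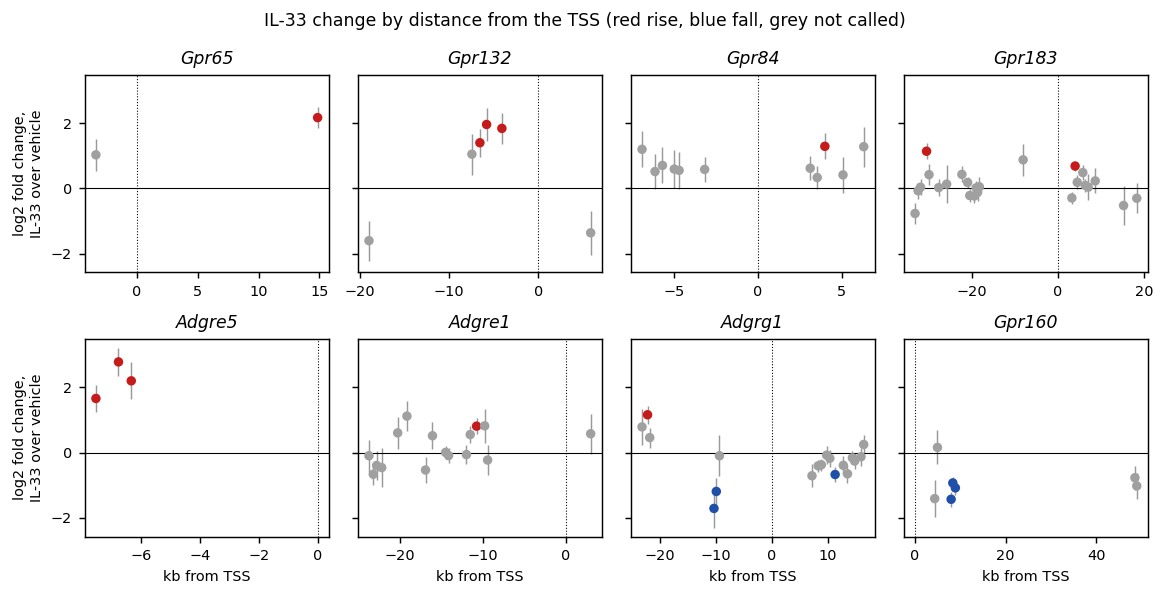
Log2 fold change of IL-33 over vehicle in the authors' deposited table (vertical axis) against distance from the TSS in kb (negative is upstream) for 8 receptor genes. For Adgrg1, upstream and intron regions are placed from different starts. Points are tested regions, red risen, blue fallen and grey not called, and bars are the SE given there; the 3 rises of Adgre5 and of Gpr132 and the 3 falls of Gpr160 each lie close together, while Adgrg1 has a rise far upstream and falls nearer by.

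The falls among the other class A orphans came from 3 genes, and none of this group rose. In the first intron of Gpr160, 3 of 7 tested regions fell, at 7.96, 8.33 and 8.89 kb from the start (chromosome 3, 30863659 to 30865089). The first of them held 47.9, 69.9, 167 and 174 tags in male and 103, 91.9, 242.5 and 283 in female mice. Each sex held low and high values and the ranges overlapped. The authors' deposited table gives -1.43 (SE 0.22, adjusted p = 1.29e-08), -0.93 (SE 0.18) and -1.08 (SE 0.23), with group values for the first of 6.72 with vehicle and 5.26 with IL-33. The highest promoter region of Gpr160, at 155 bp, was found only in the peak set of the vehicle libraries, and those of Gpr84 and Gpr146, at 782 and 352 bp, only in the set of the IL-33 libraries. The other promoter regions of these 3 genes were found in both sets. The peak sets come from the same libraries as the authors' deposited table, and they give no IL-33 change for these promoters. Of 36 tested receptor regions in the IL-33 set only, 7 rose and 0 fell by the authors' deposited table. Of 14 in the vehicle set only, 0 rose and 3 fell there, so most regions of either set had no call. The Adgrg1 region 8.83 kb inside the gene is in the IL-33 set only and stood at -0.37.

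Gpr165, an orphan receptor gene on the X chromosome, had 2 falls among 5 tested regions, all 5 below 0 by the authors' deposited table. They are intergenic and lie 104 and 97.6 kb upstream, at -1.53 and -2.02 (SE 0.38 and 0.55, adjusted p = 0.000806 and 0.00316) by the authors' deposited table. The first held 25.9, 29.8, 71.3 and 46.5 tags in male and 8.80, 14.5, 106 and 65.0 in female mice, so the female values enclosed the male ones. Gpr153 had 2 falls among 5, at -1.16 and -1.30 (SE 0.41 and 0.37, adjusted p = 0.0319 and 0.00392) by the authors' deposited table. These overlapping regions lie in intron 6 of 8 of Acot7, an acyl-CoA thioesterase gene, 35.0 to 35.3 kb from the Gpr153 start, and the Gpr153 promoter held 0.518 tags. Of the 9 genes of the group with no call, Gpr15, chosen after its values were seen, stood at -1.52 (adjusted p = 0.0866) and Gpr157 at 0.38 (adjusted p = 0.509) by the authors' deposited table, with Gpr83 at -0.64 (adjusted p = 0.522).

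The remaining roles had no call by the authors' deposited table. Gpr82, a receptor related to the purinergic receptor P2ry12, was at 0.37 (adjusted p = 0.303) at its best region there. Gpr12 and Gpr3, which raise cyclic AMP without a known ligand, were at -0.74 (adjusted p = 0.152) and 0.60 (adjusted p = 0.452) by the authors' deposited table. Gpr107, a Golgi protein, stood at 0.91 (adjusted p = 0.251), with the lysosomal cholesterol sensor gene Gpr155 at -0.36 (adjusted p = 0.293) by the authors' deposited table. Gpr137b, of the lysosomal membrane, and the class C genes Gprc5b and Gprc5c had no tested region.

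Genes that act with these receptors were examined as 4 lists, to be read against the 19.4% of all tested genes with a rise and 20.9% with a fall. Of 5 tested genes for arrestins and receptor kinases, Grk2, a kinase that switches receptors off, had rises (3 of 7 regions, best 1.46, SE 0.33, adjusted p = 0.000217) and the other 4 had no call by the authors' deposited table. Of 7 tested genes for enzymes that make or break receptor ligands, 3 had only rises, 1 only a fall, 1 both and 2 neither by the authors' deposited table. Ch25h, whose product is a precursor of the Gpr183 ligand, had 8 rises among 10 regions (best 2.86, SE 0.37, adjusted p = 2.29e-12) by the authors' deposited table. Pla1a, which makes lysophosphatidylserine, followed at 2.31 (3 of 5 regions rose), with the endocannabinoid genes Mgll at 2.12 (3 rises and 1 fall) and Dagla at 0.58 (1 rise) by the authors' deposited table. Of 5 tested partners of adhesion receptors, 1 had only falls, 1 both and 3 neither by the authors' deposited table. By the authors' deposited table these were Dock1 (3 falls, best -2.32) and Elmo1 (13 rises and 2 falls among 82 regions). The products of these genes form an engulfment module. Of 11 other lipid and metabolite receptor genes, 4 had only rises, 3 only falls and 4 neither by the authors' deposited table. The lysophosphatidic acid receptor gene Lpar6 was at 1.69, the lactate receptor gene Hcar1 at 1.53, Hcar2 at 1.63 with 6 rises among 8 regions, and the sphingosine phosphate receptor gene S1pr1 at -1.38 by the authors' deposited table. Regions of these lists too are assigned by nearest gene. Among the genes named, the best region lies closest to the start at Lpar6 (-3170 bp) and farthest at Dock1 (-115075 bp), with Ch25h at 53779 bp. Medians by list, again from the authors' deposited table, were 0.37, 0.51, 0.15 and 0.13 log2 units, against -0.01 over all regions. They pool regions of a gene that are not independent, and Elmo1 holds 82 of the 105 regions of the adhesion partners. The difference from all regions was not tested.

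The second comparison set female against male libraries at 221 regions of 41 receptor genes. A single region passed the test, and it was lower in female libraries. The promoter region of Gpr137c, a gene related to the lysosomal protein Gpr137 (chromosome 14, 45219394 to 45219894), held 58.9, 21.8, 53.5 and 42.6 tags in males 1, 2, 5 and 6, and 0, 0, 8.36 and 4.64 in female mice 3, 4, 7 and 8. The groups did not overlap, and the female values stand for 4 reads in all against 151 in the male libraries. The log2 difference was -3.98 (SE 0.87, limma, adjusted p = 0.0325). Without male mouse 1, 2, 5 or 6 the call was lost (limma, adjusted p = 0.183, 0.0874, 0.191 and 0.16, against 0.00699 to 0.0654 over the other alternatives), at differences of -3.81 to -4.28. The region also overlaps Txndc16, and its signal cannot be given to either gene alone.

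That 1 call of 221 compares with 1.87% of all 53348 tested regions, and with 5.64% of the promoter regions among them, called lower in female libraries. No receptor region was called higher by limma or by edgeR, against 0.15% of all regions. At an unadjusted p under 0.05, 21 receptor regions were higher and 4 lower in limma's test. The share of all regions at that threshold was not counted, so this split cannot be called particular to the receptor genes. The median log2 difference was 0.28 over the receptor regions and 0.22 over all regions. With TMM rescaling the median over all regions moved to -0.01. Away from promoters the median was 0.35 at 178 receptor regions and 0.30 at all regions, while at promoters it was 0.07 at 43 receptor regions and 0.02 at all.

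Next in order came a region 5.08 kb from the Gpr84 start, with 120, 93.9, 86.0 and 77.5 tags in male and 64.5, 38.7, 19.5 and 32.5 in female mice. The groups did not overlap, and the log2 difference of -1.36 (SE 0.37) missed the threshold (limma, adjusted p = 0.092), but passed it with TMM rescaling (adjusted p = 0.0343), with quantile normalisation (0.0309) and without female mouse 3 (0.0216). A Gpr146 promoter region at -77 bp held 288, 195, 162.5 and 138 tags in male and 132, 116, 44.6 and 13.9 in female mice, without overlap, and did not pass either (log2 difference -1.73, SE 0.57, limma, adjusted p = 0.193). The promoter of the adhesion receptor gene Adgra3 held 25.2 ± 5.54 tags in males and 5.18 ± 3.85 in females (SD, n = 4; limma, adjusted p = 0.189). In the other direction, the intronic Adgrg1 region 8.83 kb from the start differed by 0.68 (SE 0.22, adjusted p = 0.173) and a Gpr183 region 20.95 kb upstream by 0.63 (SE 0.20, adjusted p = 0.175) in limma's test. Regions of Gpr18 (0.68), Gpr155 (2.32) and Adgre1 (0.88) were likewise past no threshold (limma, adjusted p = 0.2, 0.224 and 0.225).

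**Figure D4:**
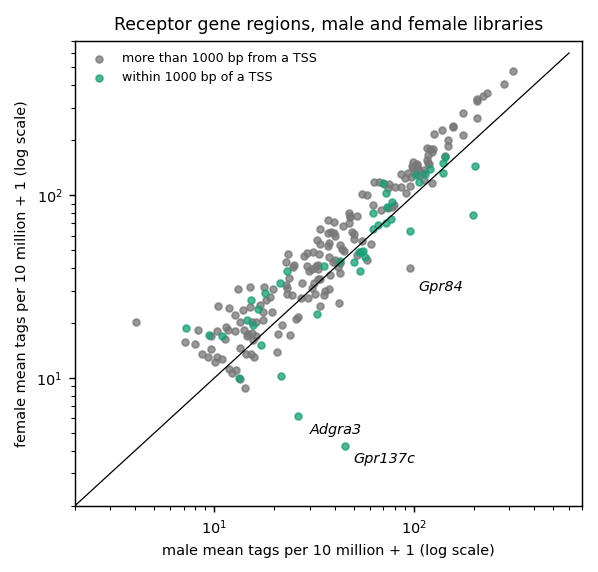
Mean normalised tags plus 1 in the 4 male (horizontal) and 4 female libraries (vertical), both axes logarithmic, for the 221 tested regions of 41 receptor genes. The line marks equal values; most points lie slightly above it, and the Gpr137c promoter, the 1 region called, lies far below it.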

How the data were processed

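H3K27ac ChIP-seq was deposited for 8 libraries of cortical microglia, 4 male and 4 female mice; the 4 input libraries have no value in the tables and were not analysed here. The submitters' processing notes name Bowtie2, HOMER and build mm10 (GRCm38) without versions. Signal values are, per the file headers, tags in 500 bp regions that the authors scaled to 10000000 tags per library. Divided by their header's factor, 100% of values were whole reads within 0.01. The second is the authors' deposited table of IL-33 against vehicle, with log2 fold changes and log2 group values, scores (mean level, standard error, statistic), p-values and adjusted p-values; neither its tool nor the mice in each group are stated by the labels or headers.

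Regions were assigned to the nearest gene named in the table, by position. Calls for IL-33 are those of the authors' deposited table at an adjusted p under 0.05. Female and male libraries were compared with limma 3.58.1 in R 4.3.3 (moderated test with trend, log2 of tags + 1, mean of at least 10 tags, Benjamini-Hochberg adjustment over all 53348 regions); edgeR 4.0.16 on whole reads was an alternative, and the fit was tested on simulated data. Each library is 1 mouse, so the spread is between mice, and it includes any effect of IL-33. The genes described were found by name, and they and the lists were chosen with earlier results of these data known. Named genes are those with the smallest adjusted p per direction (up to 10) and between the sexes (10), the 8 highest promoters, the 5 with most tested regions, up to 2 more per role, and up to 4 called genes per pathway list; others are said to be chosen after their values were seen. Promoter sequences come from RefSeq on GRCm38.p6. Single values of some of these genes are not reported here.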

Additional observations from a re-analysis of the deposited data

Results flagged for a closer look

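Among 94 groups of 4 libraries, namely the promoter regions of the named genes with a mean of at least 10 tags and the called regions, 5 held a library far from the other 3, and chance gives about 1 in 20. At the Gpr19 promoter, female mouse 8 had 250.6 tags against 126 to 138 in the other females. At the Adgra3 promoter, male mouse 1 had 17.0 tags against 27.3 to 29.1. Female mouse 4 stood apart in the remaining 3 cases, with 48.4 tags against 2.93 to 8.36 at the Gpr31b promoter, 33.9 against 0 to 2.93 at the Adgrl2 region 129 kb upstream, and 668 against 284 to 339 at the Gpr183 intron region. Regions held 47.3% of the tags of female mouse 4, against 32.9 to 39.6% in the other libraries. Its part in these values was not tested.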

How the results depend on the processing

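With an adjusted p under 0.01 in the authors' deposited table, 3 receptor genes and 6 regions fell, in place of 5 and 11. Gpr18, Gpr84 and Adgrl2 were past 0.05 only. So were all 3 falls of Adgrg1, which kept its rise alone at 0.01. Among regions with a mean level at or above the median of the authors' deposited table, 10 receptor regions rose and 9 fell, in place of 18 and 11. Over all such regions 14.8% rose and 12.7% fell. The tested receptor regions at that level numbered 37 for the adhesion family and 36 for the lipid and metabolite receptors. The other class A orphans held 15 and each other role 5 or fewer. The proton-sensing genes held 2 of the 10 rises, in place of 6. Counts within 50 kb of the TSS stayed within 1.5 times the values given, as did promoter regions within 500 bp (44 genes against 50). Within 50 kb, 10 genes had a rise and 4 a fall, in place of 11 and 5. Both Gpr165 falls and the Adgrl2 rise lie farther out and were lost. Of receptor regions lower in female libraries, there were 5 with no filter on low values, 0 with a mean of at least 30 tags, where Gpr137c is not tested, 2 with TMM rescaling, 2 with quantile normalisation, and 0 to 2 without a single mouse. With no filter, Gpr137c stood at an adjusted p of 0.0654, and none of those 5 regions was Gpr137c. The cause was not tested. The authors' deposited table cannot be refitted without a mouse. No paired analysis was possible because the male and female mice share no number. Female depth limits regions of under about 10 tags, which are 2 to 4 reads.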

Other observations

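Values per mouse, in the order of mice 1 to 8, are given for 3 called regions chosen after their values were seen. The Gpr4 region 9.37 kb upstream held 25.9, 21.8, 26.4, 50.8, 2.10, 0, 0 and 0 tags. At the Gpr165 region 97.6 kb upstream the values were 8.98, 2.29, 2.93, 0, 19.9, 21.3, 33.5 and 32.5 tags. The Adgre5 region 6.33 kb upstream had 22.0, 34.4, 11.7, 41.1, 2.10, 1.94, 11.2 and 0 tags. The labels do not say which mouse received IL-33, and no mice were averaged or compared by these values.

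By peak set, 69.1% of the receptor regions were found with both treatments, 20.8% with IL-33 only and 10% with vehicle only, against 72.3%, 18.8% and 8.86% of all regions. By the authors' deposited table, 7 rose and 0 fell of the 36 tested receptor regions found with IL-33 only (19.4% and 0%), against 22.3% and 3.19% of all 6677 tested regions of that set. For the 14 found with vehicle only, the authors' deposited table gives 0 rises and 3 falls (0% and 21.4%), against 4.25% and 14.1% of all 2612. Peak sets and fold changes come from the same libraries.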
